A study of Homo sapiens with 6 samples.

Results

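Nuclear genes encode most subunits of the 5 complexes of oxidative phosphorylation, and their mRNAs were examined in PC-3 tumors from vehicle-treated and WCE-treated mice. A gene entry was taken as a member when one of its symbols began with NDUFA, NDUFB, NDUFC, NDUFS or NDUFV and a number, with UQCR, with ATP5 or with COX4 to COX8 and a letter, or was SDHA, SDHB, SDHC, SDHD or CYC1. This gave 90 of the 24000 entries in the deposited table, by symbol alone. PC-3 is an established human prostate cancer line that grows without androgen signaling. WCE is a standardized extract of the herb Wedelia chinensis. The cells carried a firefly luciferase reporter per the study's methods and were implanted in the prostate of male athymic nude mice, which lack T cells but keep other host immune and stromal cells and were 6 weeks old when obtained. The mice were treated by mouth with vehicle or with WCE. The labels give PC-3, nude mice and 10 weeks of treatment for both groups, with no dose, and 3 individual tumors per group. Values are FPKM (fragments per kilobase of transcript, scaled by the number of mapped fragments) from strand-specific libraries of polyadenylated RNA.

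Complex I passes electrons from NADH to ubiquinone, complex II from succinate, complex III passes them on to cytochrome c, and complex IV reduces oxygen. Complexes I, III and IV pump protons across the inner mitochondrial membrane, and complex V, the ATP synthase, uses the gradient to make ATP. Complexes I, III, IV and V also need subunits encoded in mitochondrial DNA, so their assembly draws on both genomes, and several complex IV subunits have tissue-specific or inducible isoforms.

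Of the 90 members, 36 belong to complex I, 4 to complex II, 9 to complex III, 18 to complex IV and 15 to complex V. NDUFA4, named for complex I, was counted with complex IV, where the protein is found. The remaining 8 are not subunits in the strict sense: COX4NB, ATP5S and ATP5SL carry older names of other proteins, ATP5EP2, ATP5L2, UQCRBP1 and UQCRHL are pseudogenes or close copies, and NDUFA4L2 is a paralog of NDUFA4. The entries for ATP5E, ATP5J2 and NDUFC2 are joined with the neighboring genes SLMO2, PTCD1 and KCTD14, so their values cover both genes. A further limit on single genes is that 18 members share their listed locus with another entry, and how reads were divided there, or between a gene and its pseudogenes, is not given in the sources used here. Entries with a mean of at least 0.5 FPKM over the 6 tumors were tested, which kept 83 members and 13287 entries in all. The 7 members left out were COX4I2, COX6A2, ATP5EP2 and ATP5L2, listed at 0 in all tumors, and COX7A1, COX8C and UQCRBP1, which did not exceed 0.317 FPKM in any tumor.

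Vehicle replicate 3 and WCE replicate 1 stood apart from their labels, because their values were nearly the same. Over the 83 tested members the median absolute difference between these tumors was 0.042 in log2(FPKM + 1). The other 14 pairings of tumors gave 0.097 to 0.309. Vehicle replicate 3 was above 0 for each of the 15805 entries detected in WCE replicate 1. The table holds no counts and the absolute depth is unknown, but the steps between low values put WCE replicate 1 at 25.03% of the depth of vehicle replicate 3, and the other tumors at 64.8% to 85.2%. The comparison was therefore made with all 6 tumors as labeled and again without these tumors. The summed level of KRT8, KRT18, EPCAM and VIM, which PC-3 cells express, was 1013 to 1236 FPKM in every tumor. EPCAM on its own was lower in every WCE tumor than in every vehicle tumor, at 305, 250 and 185 against 180, 138 and 123 FPKM. The other 3 had higher means in WCE tumors with overlapping groups, by 0.41 for VIM, 0.10 for KRT18 and 0.05 for KRT8 in log2(FPKM + 1). Of the host cell markers, 2 of 4 for endothelium, 1 of 5 for leukocytes, 2 of 5 for fibroblasts and 1 of 6 for muscle reached a mean of 0.5 FPKM. The endothelial sum was 1.20 to 3.30 FPKM in vehicle tumors and 3.13 to 7.56 FPKM in WCE tumors. Of its genes only KDR did not overlap, at 0.216, 0.247 and 0.529 against 0.559, 1.59 and 5.12 FPKM. PECAM1 had means of 2.14 and 2.30 FPKM with overlapping groups. CDH5 (means 0.0453 and 0.0236 FPKM) and VWF (0.0478 and 0.0534 FPKM) also overlapped. The leukocyte sum was 25.7 to 41.3 FPKM in vehicle tumors and 40.2 to 44.7 FPKM in WCE tumors. It was nearly all CD68 (means 31.9 and 40.7 FPKM, overlapping groups), so it describes 1 gene and not leukocytes in general. PTPRC (means 0.392 and 0.332 FPKM), LYZ (0.174 and 0.163 FPKM) and CSF1R (0.0712 and 0.0631 FPKM) had lower means in WCE tumors. CD14 had a higher one (0.238 and 0.476 FPKM), and the groups overlapped for each of these genes. Muscle markers summed to 1.86 to 4.03 FPKM and fibroblast markers to 12.4 to 55.8 FPKM, with overlapping groups. The table does not separate reads of mouse host cells, and in these bulk samples fewer cells of a type and less RNA per cell cannot be told apart. Whether these differences had a part in the members' values was not tested.

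Many of these genes share short promoter motifs that the factors NRF1, GABPA (an ETS factor) and YY1 are known to bind, so their promoters are shown before their levels. RefSeq promoter windows on GRCh38.p14 were found for 70 members, as 84 windows of 300 bases around annotated starts. The letters GCGCATGC, the core of the NRF1 motif, stood on either strand in 17.9% of the member windows and in 3.05% of all 35116 windows. The ETS core CCGGAAG stood in 26.2% against 10.3%, and the YY1 core AAGATGGC in 15.5% against 2.89%. At least one of the 3 was present in 46.4% of the member windows and 14.9% of all windows. By complex, the NRF1 core was found in 6 of 38 windows for complex I, 2 of 3 for complex II, 0 of 7 for complex III, 2 of 17 for complex IV and 5 of 15 for complex V. A match describes the letters and does not show that a factor binds there. Below are the 250 bases before the start of 4 members described further on, with capitals marking any of the 3 motifs on either strand. COX5A had the largest negative difference of all members, ATP5H and NDUFA5 had lower means in WCE tumors with overlapping groups, and COX6A1 was among the most abundant and least variable. COX5A lies on the minus strand at chr15:74938074-74938323, ATP5H (now ATP5PD) on the minus strand at chr17:75046970-75047219, NDUFA5 on the minus strand at chr7:123557819-123558068 and COX6A1 on the plus strand at chr12:120437863-120438112.
COX5A: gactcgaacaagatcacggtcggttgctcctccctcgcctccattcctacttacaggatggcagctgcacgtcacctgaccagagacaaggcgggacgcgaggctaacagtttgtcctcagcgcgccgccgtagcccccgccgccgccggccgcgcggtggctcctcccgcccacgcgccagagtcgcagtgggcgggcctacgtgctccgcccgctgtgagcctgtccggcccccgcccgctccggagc
ATP5H: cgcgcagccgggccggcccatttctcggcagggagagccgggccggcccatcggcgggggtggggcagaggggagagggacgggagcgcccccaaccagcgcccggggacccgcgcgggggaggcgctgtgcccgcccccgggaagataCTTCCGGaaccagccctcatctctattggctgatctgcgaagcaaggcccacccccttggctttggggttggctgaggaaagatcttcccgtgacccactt
NDUFA5: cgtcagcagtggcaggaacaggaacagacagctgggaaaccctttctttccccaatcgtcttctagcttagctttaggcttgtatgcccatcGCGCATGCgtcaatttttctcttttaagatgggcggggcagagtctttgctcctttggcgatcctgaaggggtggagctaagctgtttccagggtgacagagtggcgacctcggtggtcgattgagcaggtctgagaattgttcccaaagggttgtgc
COX6A1: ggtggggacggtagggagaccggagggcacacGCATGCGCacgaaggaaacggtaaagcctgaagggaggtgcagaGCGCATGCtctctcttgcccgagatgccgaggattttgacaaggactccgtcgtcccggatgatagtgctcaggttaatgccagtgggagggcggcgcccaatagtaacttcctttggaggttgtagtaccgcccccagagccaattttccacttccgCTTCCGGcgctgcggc
None of the 3 motifs was found in the COX5A window. The ATP5H window holds 1 ETS core that begins at -101 relative to the start. The NDUFA5 window shown, 1 of 3 annotated for that gene, holds 1 NRF1 core at -158, and the other windows of the gene hold none of the 3 motifs. The COX6A1 window holds 2 NRF1 cores, at -218 and -174, and 1 ETS core at -16. The printed matches do not overlap one another.

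The subunit mRNAs were abundant. The median of the 83 tested members was 134 FPKM, compared with 10.7 FPKM for all entries tested, and 52 members were at 100 FPKM or more and 11 at 500 FPKM or more. Complexes IV and V had the highest medians, 305 and 255 FPKM, and complexes I, III and II followed with 118, 95.4 and 90.1 FPKM. Within complex I the levels ran from 18.1 FPKM for NDUFA10, an accessory subunit, to 572 FPKM for NDUFB9, an accessory subunit of the membrane arm. The 7 core subunits of complex I that are nuclear-encoded, among them the subunits that hold the flavin and the iron-sulfur clusters, had a median of 105 FPKM, and the 29 accessory subunits one of 121 FPKM. NDUFS1, the largest core subunit, was the lowest of the core at 20.8 FPKM, and NDUFV2 the highest at 255 FPKM. The 4 subunits of complex II were closest to each other, from 71.0 FPKM for the membrane anchor SDHC to 137 FPKM for the other anchor, SDHD. In complex III the hinge protein UQCRH reached 544 FPKM, and UQCRQ was lowest at 61.5 FPKM. In complex IV the small subunit COX7C had 1693 FPKM, the highest level of any member. In complex V the joined ATP5E entry, whose subunit belongs to the central stalk, had 1569 FPKM, and ATP5D, of the same stalk, had 48.3 FPKM. The members together took 2.82% to 3.42% of the summed FPKM of a tumor.

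**Figure D1:**
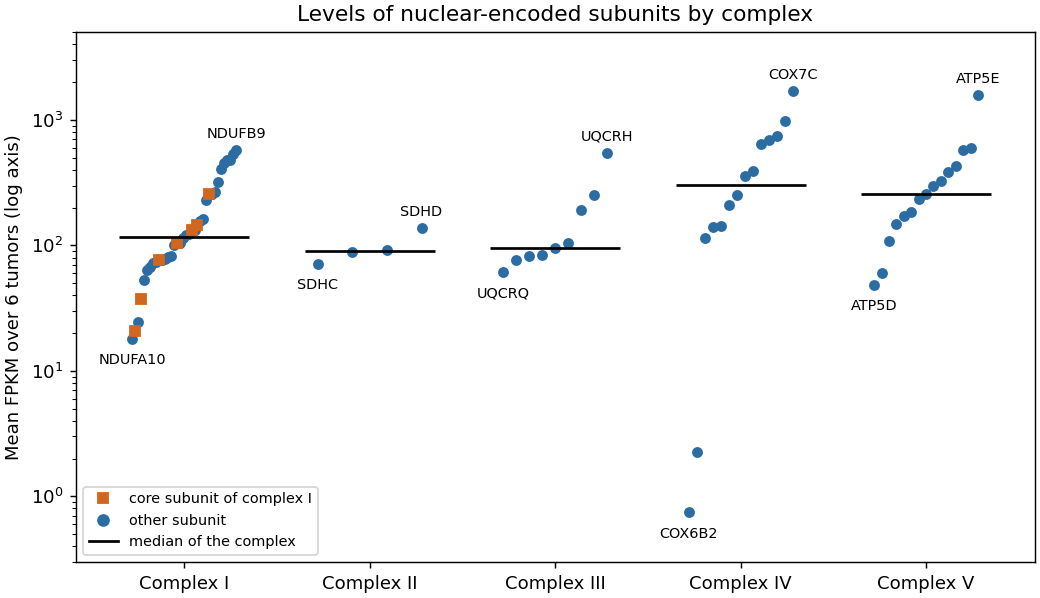
Mean FPKM over the 6 tumors (log axis) of the 78 tested subunits, by complex, with core subunits of complex I as squares, other subunits as circles and the median of each complex as a line. Complexes IV and V have the highest medians (305 and 255 FPKM), and in complex IV the isoforms COX6B2 and COX7B2 lie far below the other subunits.

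In most isoform sets of complex IV the widely expressed form was high and the tissue-specific form or paralog was listed at or near 0. A value of exactly 0 in this table can be a failed estimate. The common ADP/ATP carrier gene SLC25A6 is listed more than once, each time at 0 in all 6 tumors. Whether members with a single entry are affected in the same way is unknown, so no low expression is read from a value of 0. COX4I1, the common form of the regulatory subunit 4, ranged from 370 to 404 FPKM and varied least of all tested members, with the highest tumor at 1.09 times the lowest. COX4I2, its lung form, was listed at 0 in all 6 tumors. COX6A1 ranged from 924 to 1058 FPKM, and the heart and skeletal muscle form COX6A2 was listed at 0 throughout. COX7A2 ranged from 169 to 231 FPKM, and COX7A1, the other muscle form, did not exceed 0.0994 FPKM. Of the 6 muscle markers, CKM, MYH2 and DES were at 0 or below 0.05 FPKM in every tumor, while ACTA1 and TNNT3 reached up to 0.294 and 0.746 FPKM and ACTG2 ranged from 1.35 to 3.16 FPKM. COX7A2L, the paralog of COX7A2, was well expressed, at 120 to 161 FPKM. COX8A was at 593 to 763 FPKM and COX8C, a testis form, at no more than 0.231 FPKM. COX6B1 was at 334 to 415 FPKM and the testis form COX6B2 at 0.536 to 0.946 FPKM. NDUFA4 was at 121 to 170 FPKM, and NDUFA4L2, a paralog known as a target of hypoxia signaling, at 0.219 to 0.814 FPKM. Among the low forms COX7B2 varied most between tumors. It had 3.11, 0.192 and 4.56 FPKM in vehicle tumors and 4.57, 0.336 and 0.718 FPKM in WCE tumors, a 23.8-fold range that cut across the groups, while COX7B was at 615 to 1019 FPKM.

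The c ring of complex V is encoded by 3 genes with the same mature protein, and all 3 were expressed. ATP5G1 had 327 FPKM, ATP5G2 186 FPKM and ATP5G3 60.6 FPKM on average, so most c subunit mRNA came from ATP5G1. The ratio of ATP5G1 to ATP5G2 was 2.19, 2.08 and 1.56 in vehicle tumors and 1.52, 1.64 and 1.66 in WCE tumors, and the groups overlapped. The ratio of ATP5G1 to ATP5G3 was 5.33 ± 0.576 (SD, n = 3) and 5.54 ± 0.609 (SD, n = 3), which is within the spread between tumors. The ratio of COX7A2 to COX7A2L, a related protein that takes part in respiratory supercomplexes, was 1.43, 1.05 and 1.54 in vehicle tumors and 1.63, 1.72 and 1.77 in WCE tumors. This ratio did not overlap between groups and was picked after its values had been seen.

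The question of the comparison was whether the subunit mRNAs differed between WCE-treated and vehicle-treated tumors, and for no single member did the data show a difference beyond the spread between tumors after adjustment for all entries. With limma on log2(FPKM + 1), 0 of 83 members had an adjusted p under 0.05, against 0.00753% of all entries tested (1 entry), and the lowest adjusted p of a member was 0.623. At an unadjusted p under 0.05 there were 4 members (4.82%), against 7.1% of all entries. COX5A, NDUFB5 and ATP5H were lower in WCE tumors, against a background of 3.33% of entries lower, and 1 member was higher, against 3.78% higher. The groups did not overlap for 6 members (7.23%) that were lower in WCE tumors. The share was 6.4% of all entries and 7.68% of entries with a mean of at least 50 FPKM. For 2 members (2.41%) they did not overlap and WCE tumors were higher, against 6.37% of all entries and 3.24% of those abundant ones. These shares are near the background or below it. The lower members were COX5A, NDUFB5, COX7A2L, NDUFC2, UQCR11 and COX4NB and the higher ones included NDUFA9, and of these NDUFC2, UQCR11 and COX4NB are named after their values were seen. With 3 tumors against 3, an exact permutation test of a single member cannot give a two-sided p under 0.1.

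The signs were less even than the tests. Of the 83 members 66 (79.5%) had a lower mean in WCE tumors and 17 a higher one, while 51.4% of all entries were lower. Abundant entries in general leaned the same way, since 63.8% of the 1915 entries with a mean of at least 50 FPKM, 71 of them members, were lower. The median difference of the members was -0.07 on the log2(FPKM + 1) scale (quartiles -0.18 and -0.02), and that of the abundant entries -0.06, against -0.01 for all entries. Each complex had a median between -0.06 and -0.10, with 29 of 36 members of complex I, 3 of 4 of complex II, 7 of 9 of complex III, 11 of 14 of complex IV and 11 of 15 of complex V on the lower side. Without vehicle replicate 1 the medians of complexes I and V were -0.02 each and those of complexes II, III and IV were above 0, at 0.0031, 0.01 and 0.02. Quantile normalization of the tumors left 56 of 83 members on the lower side. The median standard error of a member was 0.13, larger than most of these differences, and all 83 differences were within 0.5 in either direction.

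**Figure D2:**
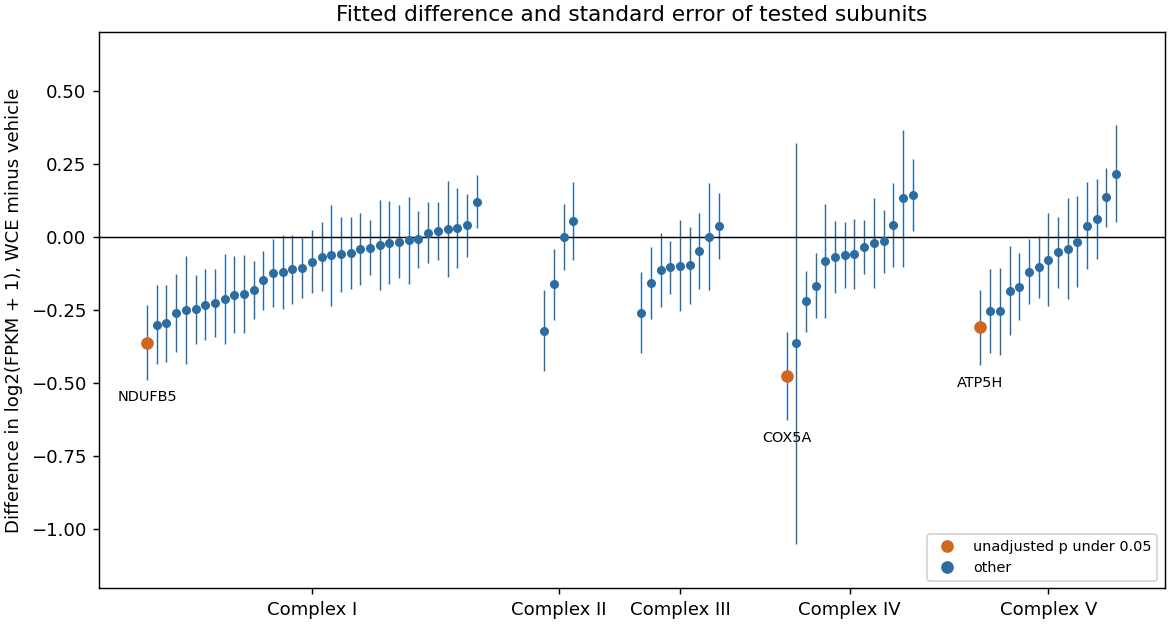
Fitted difference in log2(FPKM + 1), WCE minus vehicle (vertical axis), with its standard error, for 77 tested subunits sorted within each complex, 3 tumors per group. Most points lie just below 0, and COX5A, NDUFB5 and ATP5H, with an unadjusted p under 0.05, are drawn in orange and named.

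In complex I, NDUFB5 had the largest negative difference. NDUFB5, an accessory subunit of the membrane arm listed on chromosome 3 from 179322575 to 179342288, had 169, 158 and 126 FPKM in vehicle tumors and 122, 116 and 112 FPKM in WCE tumors. All WCE tumors lay below all vehicle tumors, though vehicle replicate 3 and WCE replicate 1 nearly touched. The means were 151 ± 22.7 and 117 ± 5.12 FPKM (SD, n = 3 each), a difference of -0.36 on the log2(FPKM + 1) scale (limma standard error 0.13, unadjusted p = 0.0233, adjusted p = 0.623). These loci are those of the deposited table, counted from 1, and the submitters' processing notes name hg19, a human build, without a role.

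Several core subunits of complex I had differences of both signs and no unadjusted p under 0.05. NDUFS3 was at -0.23 and NDUFV2, which holds an iron-sulfur cluster, at -0.20. NDUFS8, NDUFS1 and NDUFS7, which hold clusters of the electron path, were at -0.08, -0.06 and -0.01, and NDUFV1, the flavin subunit that receives electrons from NADH, was at 0.01. These subunits work next to each other in the matrix arm of the complex. Among the accessory subunits NDUFA5, of the matrix arm, had 88.5, 92.4 and 72.9 FPKM in vehicle tumors and 78.8, 65.7 and 61.2 FPKM in WCE tumors. Its groups overlapped through WCE replicate 1, and the difference was -0.30 (standard error 0.14, unadjusted p = 0.0589 by limma). NDUFA9 had 51.3, 49.6 and 51.7 FPKM in vehicle tumors and 52.1, 58.8 and 55.4 FPKM in WCE tumors, which did not overlap but differed by 0.12 (standard error 0.09, unadjusted p = 0.213 by limma). In all, 24 of 29 accessory subunits were on the lower side, with a median of -0.11, and for the core the median was -0.06.

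Complex II, which is also an enzyme of the tricarboxylic acid cycle, had no member with an unadjusted p under 0.05. SDHD had 182, 147 and 128 FPKM in vehicle tumors and 129, 115 and 118 FPKM in WCE tumors. Only vehicle replicate 3 lay within the range of the WCE tumors, and the difference was -0.32 (standard error 0.14, unadjusted p = 0.0532 by limma). The catalytic subunit SDHA had 86.7 ± 14.2 and 89.3 ± 5.24 FPKM, and the iron-sulfur subunit SDHB 97.7 ± 14.3 and 86.7 ± 4.01 FPKM (SD, n = 3 each). SDHC was nearly equal, with 71.0 ± 5.46 and 71.1 ± 7.37 FPKM (SD, n = 3 each). The difference of SDHC was within its standard error of 0.11, and that of SDHD was -0.18 without vehicle replicate 1.

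In complex III all differences were small. UQCRFS1, the Rieske iron-sulfur protein, had 112, 87.2 and 77.8 FPKM in vehicle tumors and 77.9, 77.3 and 73.2 FPKM in WCE tumors, a difference of -0.26 (standard error 0.14, unadjusted p = 0.102 by limma). It is given as the member of the complex with the largest difference, picked after its values were seen. CYC1, cytochrome c1, had 264 ± 56.1 and 244 ± 17.0 FPKM (SD, n = 3 each), with vehicle replicate 1 at 328 FPKM above all other tumors. UQCRH and UQCRQ had differences within their standard errors of 0.18 and 0.13.

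In complex IV, COX5A had the largest difference of all members. COX5A, a subunit on the matrix side of the enzyme listed on chromosome 15 from 75212617 to 75230495, had 149, 148 and 105 FPKM in vehicle tumors and 97.5, 99.6 and 88.1 FPKM in WCE tumors. The groups did not overlap, but vehicle replicate 3 lay much nearer to the WCE tumors than to the other vehicle tumors. The means were 134 ± 25.4 and 95.0 ± 6.14 FPKM (SD, n = 3 each), a difference of -0.48 (limma standard error 0.15, unadjusted p = 0.0151, adjusted p = 0.623). COX5B, the zinc-binding subunit that sits beside it, had 259 ± 27.8 and 248 ± 23.7 FPKM (SD, n = 3 each), a difference of -0.06. COX4I1 had 397 ± 7.68 and 388 ± 15.6 FPKM (SD, n = 3 each), a difference of -0.03 with a standard error of 0.09. COX7A2L had 156, 161 and 137 FPKM in vehicle tumors and 135, 134 and 120 FPKM in WCE tumors, which did not overlap, with a difference of -0.22 (standard error 0.11, unadjusted p = 0.0721 by limma). COX7A2 and COX7C were on the higher side, at 0.14 and 0.13. For COX7C the tumors spread from 1267 to 2151 FPKM, with WCE replicate 2 the highest and WCE replicate 1 the lowest, so the standard error was 0.23. COX7B2 had a difference of -0.36 with a standard error of 0.69, within the spread described above.

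In complex V, ATP5H, the peripheral stalk subunit d listed on chromosome 17 from 73034955 to 73043074, had 715, 649 and 557 FPKM in vehicle tumors and 566, 496 and 484 FPKM in WCE tumors. WCE replicate 1 was above vehicle replicate 3, so the groups overlapped. The means were 640 ± 79.4 and 515 ± 44.5 FPKM (SD, n = 3 each), a difference of -0.31 (limma standard error 0.13, unadjusted p = 0.0444, adjusted p = 0.623). The catalytic β subunit ATP5B had 473, 336 and 387 FPKM in vehicle tumors and 382, 505 and 501 FPKM in WCE tumors. WCE replicates 2 and 3 were the highest, but the groups overlapped and the difference was 0.22 (standard error 0.17, unadjusted p = 0.231 by limma). Its partner in the catalytic head, the α subunit ATP5A1, was at -0.04. ATP5G2 was higher by 0.14 (standard error 0.10), while ATP5G1 was at -0.12 and ATP5G3 at -0.17. ATP5D had a difference of -0.25 (standard error 0.14) and the joined ATP5E entry one of 0.04 (standard error 0.15).

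**Figure D3:**
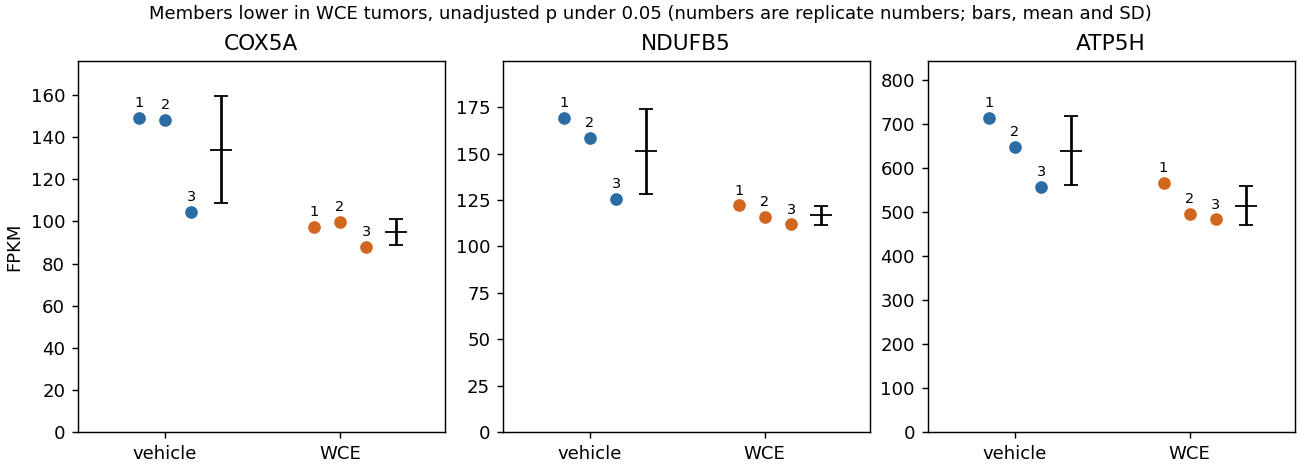
FPKM (vertical axes from 0) of the 3 members that were lower in WCE tumors with an unadjusted p under 0.05, in each tumor, vehicle in blue and WCE in orange, labeled with the replicate number, with bars for the mean and SD of 3 tumors. Vehicle replicate 3 lies nearest to the WCE tumors in all 3 members, at 105 FPKM for COX5A against 97.5 FPKM in WCE replicate 1.

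Without vehicle replicate 3 and WCE replicate 1, the differences of these members were larger. COX5A was at -0.66, NDUFB5 at -0.52, NDUFA5 at -0.51, SDHD at -0.49 and ATP5H at -0.48. With 2 tumors against 2, 18 of 83 members (21.7%) had an unadjusted p under 0.05 and were lower in WCE tumors, against 9.59% of all entries and 16.9% of entries of at least 50 FPKM. On the higher side there was 1 member, against 8.84% of all entries. The median of the members was -0.13, with 67 of 83 on the lower side. Vehicle replicate 1, described next, is 1 of the 2 vehicle tumors in that fit. Still 0 members passed the adjusted threshold, and the lowest adjusted p was 0.173 by limma.

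The lean of the members toward lower values was smaller without vehicle replicate 1. This tumor was the highest of the 6 in 50 of 83 members (60.2%), against 28.45% of all entries and 47.05% of entries of at least 50 FPKM, and it was above the mean of the 6 tumors in 75 members. Its median deviation from that mean was 0.20 in log2(FPKM + 1), and the other tumors had 0.02 (vehicle replicate 2), -0.09 (vehicle replicate 3), -0.08 (WCE replicate 1), -0.02 (WCE replicate 2) and -0.06 (WCE replicate 3). Vehicle replicate 3 was thus the lowest of all by this measure, so the vehicle group held both extremes. Entries of at least 50 FPKM had a median deviation of 0.12 in vehicle replicate 1, and all entries one of 0.01. The high position of this tumor was seen in each complex, with median deviations of 0.19 to 0.28. Without vehicle replicate 1 the median difference of the members was -0.01, with 44 on the lower and 39 on the higher side. In that fit 1 member had an unadjusted p under 0.05 (1.2%, against 3.18% of all entries). Leaving out vehicle replicate 3 instead put 70 of 83 members on the lower side, with a median of -0.14. No fit left out vehicle replicate 1 together with the nearly identical pair, and the source of the lean was not tested. Vehicle replicate 1 also had the lowest endothelial and leukocyte marker sums, 1.20 and 25.7 FPKM, the latter nearly all CD68. Its sum of KRT8, KRT18, EPCAM and VIM was the lowest as well, at 1013 FPKM. Its fibroblast and muscle sums, 39.0 and 2.495 FPKM, were above those of WCE replicate 2, 12.4 and 1.86 FPKM. The endothelial gene VWF was highest in vehicle replicate 1, at 0.0893 FPKM. The part of these differences in the members' values was not tested.

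**Figure D4:**
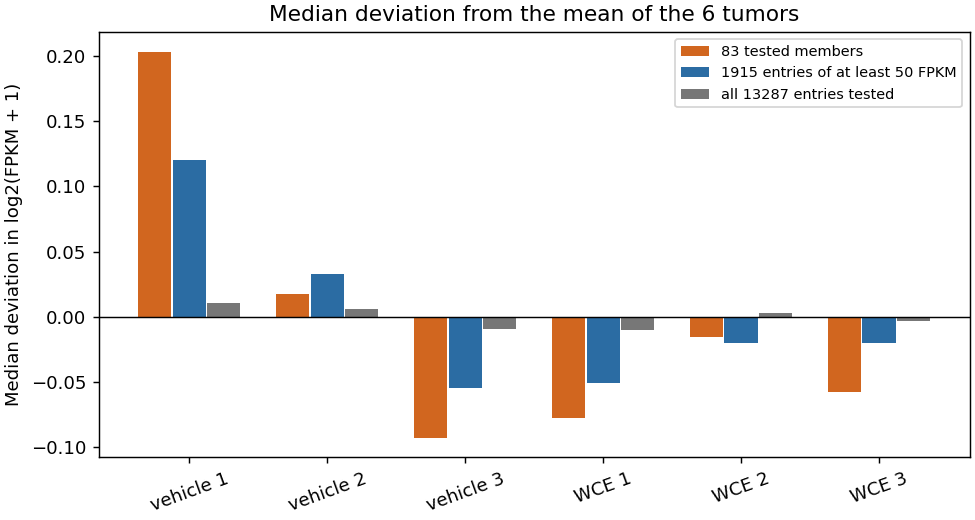
Median deviation of log2(FPKM + 1) from the mean of the 6 tumors, in each tumor, for the 83 tested members, for the 1915 entries of at least 50 FPKM and for all 13287 entries tested. Vehicle replicate 1 stands highest for the members (0.20) and vehicle replicate 3 lowest (-0.09).

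Across the 6 tumors most members correlated with the median profile of the members. The correlation was above 0.5 for 59 of 83, and the median correlation between pairs of members was 0.43. The profile was made from these same members, so positive correlations with it are partly built in. No such values were computed for all entries or for abundant ones, so they are not read as a trait of the members. They describe 6 tumors that include the nearly identical pair, and all members of a tumor share its library. A correlation below 0 with the median profile was found for 8 members. The most negative was ATP5G2 at -0.87. NDUFA4L2 and COX6B2, which had means of 0.526 and 0.745 FPKM, were also among them, as were NDUFA9, NDUFB11, NDUFB8 and COX7B2. ATP5G2 had 163, 176 and 194 FPKM in vehicle tumors and 198, 200 and 187 FPKM in WCE tumors, so its lowest value was in vehicle replicate 1, where most members had their highest.

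**Figure D5:**
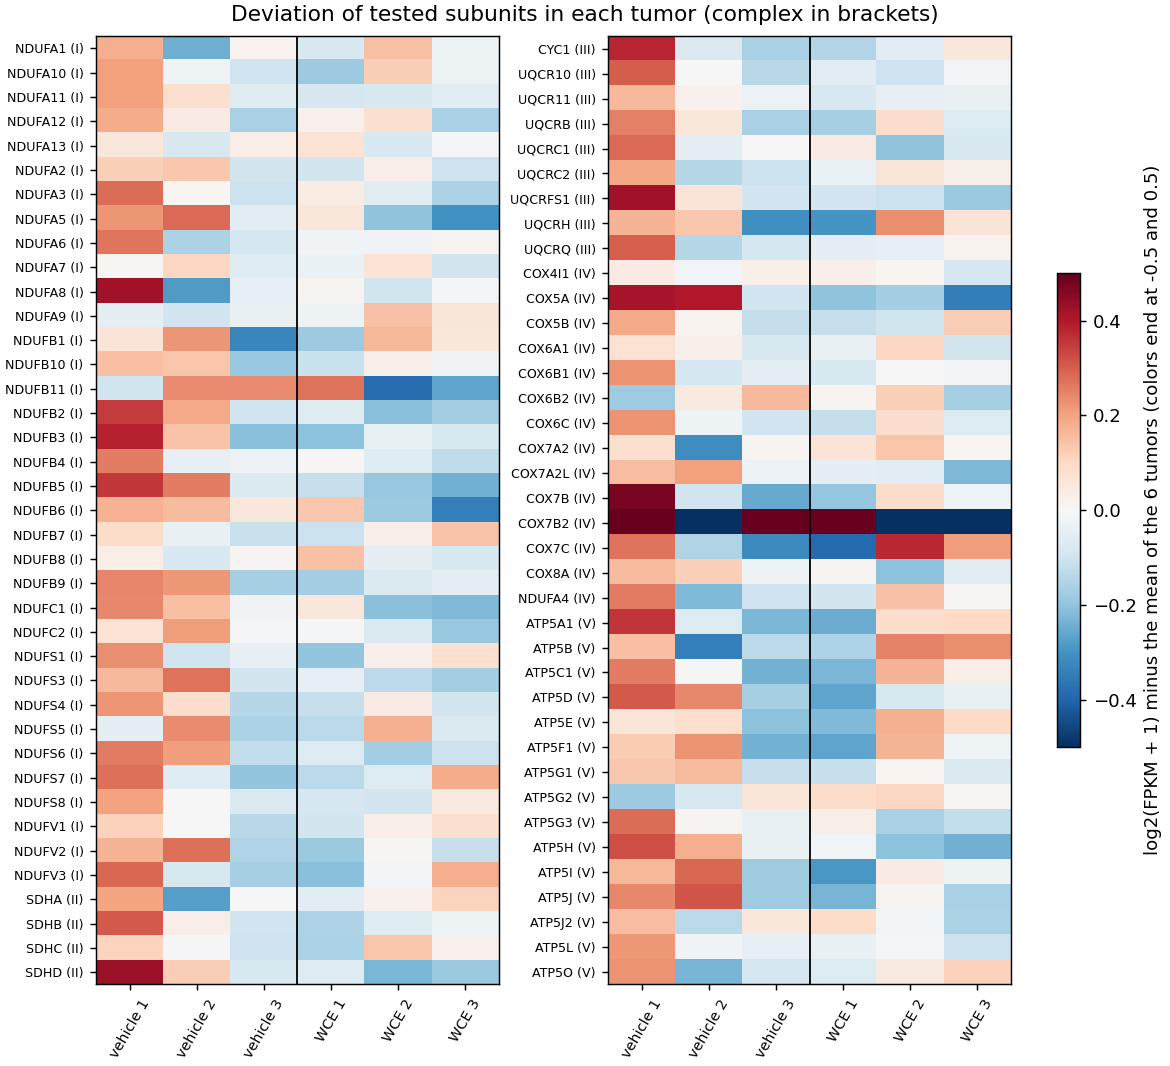
Deviation of log2(FPKM + 1) from the mean of the 6 tumors (color) for 77 tested subunits (rows, complex in brackets) in each tumor (columns, with a line between vehicle and WCE). The vehicle 1 column is red in most rows, the vehicle 3 and WCE 1 columns resemble each other, and ATP5G2 runs against most other rows.

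Other genes that serve the respiratory chain were counted from lists chosen with earlier results known. Of 39 assembly factors, 33 had lower means in WCE tumors (median -0.13). An unadjusted p under 0.05 was found for 3 of them (7.69%, near the 7.1% of all entries), 2 lower and 1 higher. NUBPL, which delivers iron-sulfur clusters to complex I, had 13.4, 13.7 and 11.7 FPKM in vehicle tumors and 10.2, 10.9 and 10.8 FPKM in WCE tumors (-0.26, unadjusted p = 0.0334 by limma). NDUFAF4, a complex I assembly factor, was at -0.38 with overlapping groups (unadjusted p = 0.0488 by limma). UQCC (now UQCC1), needed to make cytochrome b of complex III, had 16.3, 15.9 and 19.4 FPKM in vehicle tumors and 20.2, 24.7 and 20.3 FPKM in WCE tumors (0.32, unadjusted p = 0.0326 by limma). Of 18 electron carriers and shuttles, 16 had lower means (median -0.13, where 51.4% of all entries were lower), and 2 had an unadjusted p under 0.05 and were lower, against 3.33% of all entries. These were ETFA, which carries electrons from fatty acid oxidation, at -0.30 (unadjusted p = 0.0408 by limma), and DHODH, the ubiquinone-linked enzyme of pyrimidine synthesis, at -0.27 (unadjusted p = 0.0467 by limma). Among 18 enzymes of the tricarboxylic acid cycle (median -0.07) and 18 genes of mitochondrial biogenesis (median -0.03), 0 had an unadjusted p under 0.05 by limma, so 0 passed the adjusted threshold either. Without vehicle replicate 1 the medians were -0.08 for assembly factors and for carriers, and above 0 for the cycle (0.06) and for biogenesis (0.03). The lists of assembly factors and of carriers also had 0 genes with an adjusted p under 0.05. None of the 13 subunits encoded in mitochondrial DNA was found by symbol, and the table listed no entry on the mitochondrial chromosome, so they were not analysed here.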

How the data were processed

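RNA-seq of 6 PC-3 tumors was used, 3 per group, grouped by the sample labels. The authors deposited 1 table of FPKM values in the layout of Cufflinks, and the submitters' processing notes name TopHat2 2.0.13, Cufflinks, hg19 and mm10. How mouse reads and multiply mapped reads were handled is not given in the sources used here, and read counts were not analysed here. FPKM can differ between tumors with the few most abundant genes, so other scalings were tried. Values were changed to log2(FPKM + 1), entries with a mean of at least 0.5 FPKM were kept, and groups were compared over all 13287 with limma 3.58.1 in R 4.3.3 (mean-variance trend, two-sided, Benjamini-Hochberg adjustment over all entries, threshold 0.05). The script was tested on simulated data with known changes placed in 200 of the 13287 entries. At the adjusted threshold it recovered 12% of changes of 0.5 in log2(FPKM + 1) and 74% of changes of 1. Differences of the size seen in the members would thus often be missed. The members and lists were chosen with earlier results of these data known. Named members were the 6 largest differences in each direction, those with an unadjusted p under 0.05 and the highest and lowest of each complex. Isoform sets, complex II and the complex I core were also named. Others were named outside these rules with results known. They are those said to be named or picked later, and COX5B, CYC1, ATP5A1, NDUFB11 and NDUFB8. From the other lists, up to 3 genes in each direction with an unadjusted p under 0.05 were named. Same-numbered tumors were not paired, since their deviations correlated between -0.24 and 0.16. Relative depth came from the commonest ratio of low FPKM values. No counting intervals are printed because absolute depth is unknown. Promoter windows are RefSeq's. Some results are not reported here by name, though their entries are in the counts.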

Additional observations from a re-analysis of the deposited data

How the results depend on the processing

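No member passed the adjusted threshold of limma in any of the alternatives run, and the median difference of the members stayed between -0.14 and -0.01, always negative. At an unadjusted p under 0.05 there were 4 members with all tumors (4.82%, against 7.1% of all entries). An unmoderated test gave 1 (1.2% against 4.46%) and limma array weights gave 16 (19.3% against 24.1%). Without vehicle replicate 3 and WCE replicate 1 together there were 19 (22.9% against 18.4%). With single tumors left out this count ranged from 0 to 18. It was 0 without vehicle replicate 2 (against 2.61% of all entries) or WCE replicate 3 (against 1.65%). It was 1 (1.2%) without vehicle replicate 1 (against 3.18%) or WCE replicate 2 (against 1.77%). Without WCE replicate 1 it was 8 (9.64% against 15.3%), and without vehicle replicate 3 it was 18 (21.7% against 13.3%). The count of members whose groups did not overlap was 8 with all tumors and 41 without vehicle replicate 3 and WCE replicate 1 together. With single tumors left out it ranged from 8 to 33. It was 33 without vehicle replicate 3, 24 without WCE replicate 1 and 14 without vehicle replicate 1. Fewer tumors make separation easier, and the share of all entries is not given for those settings. These counts are therefore not read as a result about the members. Over all entries the count at an unadjusted p under 0.05 was 944, against 593 with the unmoderated test, 3201 with array weights, 2449 without both tumors and 219 to 2033 with single tumors left out. A replicate block gave 6 members (7.2%, against 7.9% of all entries), all lower in WCE tumors, in place of 4. The cause of these changes was not tested.

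Of 38 named and tested members, 9 changed sign in at least 1 of 9 alternatives with all tumors. SDHC changed to 0.0071 with median-ratio scaling, 0.0097 with upper-quartile scaling, 0.045 with quantile normalization and 0.050 with array weights, COX4I1 to 0.0028 and NDUFS7 to 0.030 with quantile normalization. With array weights NDUFS7 was at 0.16, COX6B1 at 0.010, COX7B at 0.046, NDUFA10 at 0.0050, NDUFS1 at 0.080, NDUFS8 at 0.0014 and UQCRQ at 0.058. Without vehicle replicate 3 and WCE replicate 1, SDHC was at 0.027, COX6B2 at 0.044, NDUFA4L2 at 0.053, NDUFV1 at -0.0015 and UQCRH at -0.0058. With single tumors left out, 17 changed sign: ATP5E (-0.053 to 0.16), COX6A1 (-0.071 to 0.026), COX6B1 (-0.12 to 0.036), COX6B2 (-0.11 to 0.057), COX7B (-0.23 to 0.13), COX7B2 (-1.03 to 0.079), COX7C (-0.023 to 0.36), NDUFA10 (-0.13 to 0.035), NDUFA4 (-0.059 to 0.18), NDUFA4L2 (-0.22 to 0.062), NDUFS1 (-0.13 to 0.041), NDUFS7 (-0.11 to 0.12), NDUFV1 (-0.051 to 0.076), SDHA (-0.072 to 0.16), SDHC (-0.069 to 0.079), UQCRH (-0.15 to 0.15) and UQCRQ (-0.13 to 0.089). COX5A, NDUFB5 and ATP5H kept their direction in every alternative run, but their unadjusted p did not stay under 0.05. It was 0.0542 for COX5A, 0.0544 for NDUFB5 and 0.0702 for ATP5H in the unmoderated test, and 0.0577 for ATP5H with no filter. Without vehicle replicate 2 or WCE replicate 3 it was over 0.05 for all 3 (0.0576 to 0.144), and without vehicle replicate 1 or WCE replicate 2 for NDUFB5 and ATP5H (0.0584 to 0.124). No counting error could be computed from FPKM, and WCE replicate 1 was the shallowest tumor.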
